A study of Sus scrofa with 105 samples.

Results

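The microRNAs (miRNAs) of the pig brain described here are ssc-miR-1343, ssc-miR-193a-5p, ssc-miR-328, ssc-miR-935 and ssc-miR-326. They are 5 of the 448 miRNAs in the count table, and each has 1 entry there. They were selected on a readout of these data, namely hippocampal levels in injured piglets given cyclosporine A (CsA) that were apart from those of untreated piglets 1 day after injury or of sham piglets. All contrasts among the hippocampal groups are therefore given as a description, with no test of the 5. Where counts of calls in these contrasts are given, the selection had a part in them and nothing is read from them. Tests are kept for the frontal lobe and for animals 1 week after injury, neither of which entered the selection. The frontal sham, 1 day and CsA libraries come from the same animals as the hippocampal ones, however, so their tests are not fully independent of it.

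Small RNA was sequenced from brain of female piglets (Sus scrofa), kept as fixed tissue in paraffin, to model diffuse traumatic brain injury of childhood. Each of the 2 tissues, the frontal lobe and the hippocampus with the amygdala, was sampled in 4 groups. The sham or naive group was untreated and had survival times of 0 to 8 days. The untreated injured groups survived 1 day or 6 to 8 days, the latter called 1 week. The CsA group was injured, received 20 mg/kg per day into a vein as a loading dose 6 hours after injury and an infusion over the following 24 hours, and survived 30 hours. No group of uninjured animals given CsA, and no injured group given the vehicle alone, was analysed here, and the CsA group also survived longer than the 1 day group. The frontal lobe gave 18 sham, 10 untreated 1 day, 15 untreated 1 week and 9 CsA libraries, and the hippocampus gave 18, 10, 15 and 10. The sources used here give no animal age.

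A miRNA is cut from a hairpin precursor, and its mature strand guides an Argonaute protein to messenger RNAs that are then repressed. CsA binds cyclophilins. In T cells the complex inhibits the phosphatase calcineurin and so keeps NFAT factors out of the nucleus, and binding to cyclophilin D in mitochondria delays opening of the permeability transition pore, the reason the drug has been studied in brain injury. Of the miRNAs described, miR-193a is known mainly as a growth-restraining miRNA that is silenced in several cancers. miR-328 is known for repressing the drug exporter ABCG2 and the protease BACE1, which acts on the amyloid precursor. miR-326 is known in T cells, where it promotes the Th17 lineage, and in glioma, where it acts on Notch receptors. Less has been established about miR-935 and miR-1343.

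In RefSeq (assembly Sscrofa11.1, used for names and positions), all 5 matched a miRNA gene. MIR326 lies within ARRB1, the gene of beta-arrestin 1. MIR328 lies within ELMO3, and MIR1343 within PDHX, which encodes a component of the pyruvate dehydrogenase complex. MIR935 lies between CACNG6 and CACNG7, genes of calcium channel gamma subunits, and MIR193A between COPRS and RAB11FIP4. None of the 5 has another annotated miRNA gene within 10 kb, so these are 5 separate loci.

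All 5 are of modest abundance. Their counts summed over all libraries were 17171 for ssc-miR-1343, 23979 for ssc-miR-193a-5p, 30431 for ssc-miR-326, 39529 for ssc-miR-935 and 44007 for ssc-miR-328. By that sum they ranked between 141 and 179 among the 448 miRNAs, and none was at 0 in any library. The median count per library ran from 141 (ssc-miR-1343) to 380 (ssc-miR-328), so that counting error was small beside the spread between animals in most libraries. Library totals spanned 98008 to 12703535 counts (median 7257404). One frontal sham library, replicate 15, held only 98008 counts, with a single count each of ssc-miR-328 and ssc-miR-935. The CsA and 1 day groups had like totals, with a ratio of geometric means of 0.883 in the frontal lobe (exact permutation test, adjusted p = 0.33) and 1.01 in the hippocampus (permutation test, adjusted p = 0.9). CsA totals were 2.16 times the sham totals in the frontal lobe (exact permutation test, adjusted p = 0.019) and 2.10 times in the hippocampus (permutation test, adjusted p = 0.0011). Levels below are CPM, a count scaled to a common library total, with totals adjusted by the trimmed mean of M-values (TMM).

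The hippocampal levels fell into 2 patterns, a grouping made after the values were seen. ssc-miR-1343, ssc-miR-193a-5p and ssc-miR-328 were lower on average 1 day after injury than in sham, and higher with CsA than at 1 day. ssc-miR-935 and ssc-miR-326 were higher on average than sham both at 1 day and with CsA, although for ssc-miR-326 the 1 day difference was only 0.02 (log2) among animals with codes beginning 12 or 13. By edgeR, 0 of 5 passed an adjusted p of 0.05 for CsA against 1 day in the hippocampus, beside 0% of the 290 miRNAs tested. Over all 290, 69 had an unadjusted p under 0.05 and DESeq2 called 7. As this contrast chose the miRNAs, neither count bears on them. As bulk tissue was sequenced, fewer cells of a type and less of a miRNA per cell cannot be told apart for any result given here.

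ssc-miR-193a-5p had the most distinct 1 day levels. In hippocampal sham libraries its lowest, median and highest levels were 28.0, 55.6 and 115 CPM. At 1 day they were 8.47, 21.0 and 32.4 CPM, with CsA 13.4, 34.4 and 67.3 CPM, and at 1 week 18.8, 53.4 and 116 CPM. Of the 10 libraries at 1 day, 9 lay below every sham library, whereas only 2 of the 10 CsA libraries did, and 6 of the 10 CsA libraries lay above every 1 day library. The log2 difference between CsA and 1 day was 0.95 (SE 0.30, 1.93-fold), that between 1 day and sham -1.62 (SE 0.28), and that between CsA and sham -0.67 (SE 0.27). The CsA level of ssc-miR-193a-5p thus lay between those of 1 day and sham, but its difference from sham depended on the animals and on depth: it was -0.80 among animal codes beginning 11, -0.04 among those beginning 12 or 13, and -0.20 with the library total as a covariate.

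ssc-miR-1343 had lowest, median and highest hippocampal levels of 21.0, 30.4 and 44.2 CPM in sham. At 1 day these were 11.6, 22.5 and 47.7 CPM, with CsA 14.3, 33.1 and 55.4 CPM, and at 1 week 19.6, 32.0 and 35.9 CPM. With CsA 9 of 10 libraries exceeded the 1 day median, and 3 exceeded the highest 1 day library. The ranges of all groups overlapped, and the highest 1 day library, replicate 6, stood far above the other 9. The log2 difference between CsA and 1 day was 0.66 (SE 0.19, 1.58-fold), and that between CsA and sham was 0.24 (SE 0.17). Without that 1 day library the difference from CsA was 0.84.

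ssc-miR-328 had hippocampal levels of 52.0, 67.0 and 97.8 CPM (lowest, median, highest) in sham and of 30.0, 59.5 and 82.1 CPM at 1 day. With CsA they were 47.3, 78.4 and 144 CPM, and at 1 week 48.0, 71.4 and 86.7 CPM. The CsA libraries were spread over the whole sham range and beyond it: 8 of 10 exceeded the 1 day median, and 1 lay above and 1 below all sham libraries. The log2 difference between CsA and 1 day was 0.48 (SE 0.15, 1.40-fold), and that between CsA and sham 0.21 (SE 0.13). Without the highest CsA library, replicate 3, these were 0.38 and 0.09.

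ssc-miR-935 showed the clearest separation of CsA from sham. Its hippocampal levels were 29.7, 46.7 and 66.4 CPM (lowest, median, highest) in sham, 53.3, 67.4 and 105 CPM at 1 day, 60.0, 76.0 and 103 CPM with CsA, and 28.1, 58.3 and 70.4 CPM at 1 week. All 10 CsA libraries and all 10 libraries at 1 day exceeded the sham median, and 7 of each exceeded every sham library. The log2 difference from sham was 0.73 (SE 0.12, 1.66-fold) with CsA and 0.55 (SE 0.12) at 1 day. Between CsA and 1 day it was only 0.19 (SE 0.13), with overlapping ranges.

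ssc-miR-326 had hippocampal levels of 12.1, 32.7 and 51.2 CPM (lowest, median, highest) in sham and 36.7, 44.8 and 58.5 CPM at 1 day. With CsA they were 30.4, 46.4 and 119.8 CPM, and at 1 week 12.3, 34.0 and 48.9 CPM. The CsA group was wider than the 1 day group on both sides, with 3 libraries above and 2 below all 1 day libraries. The log2 difference from sham was 0.77 (SE 0.18, 1.70-fold) with CsA and 0.47 (SE 0.19) at 1 day, and between CsA and 1 day it was 0.30 (SE 0.21). Without CsA replicate 3, the 119.8 CPM library, CsA minus 1 day was 0.12 and CsA minus sham 0.57.

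**Figure D1:**
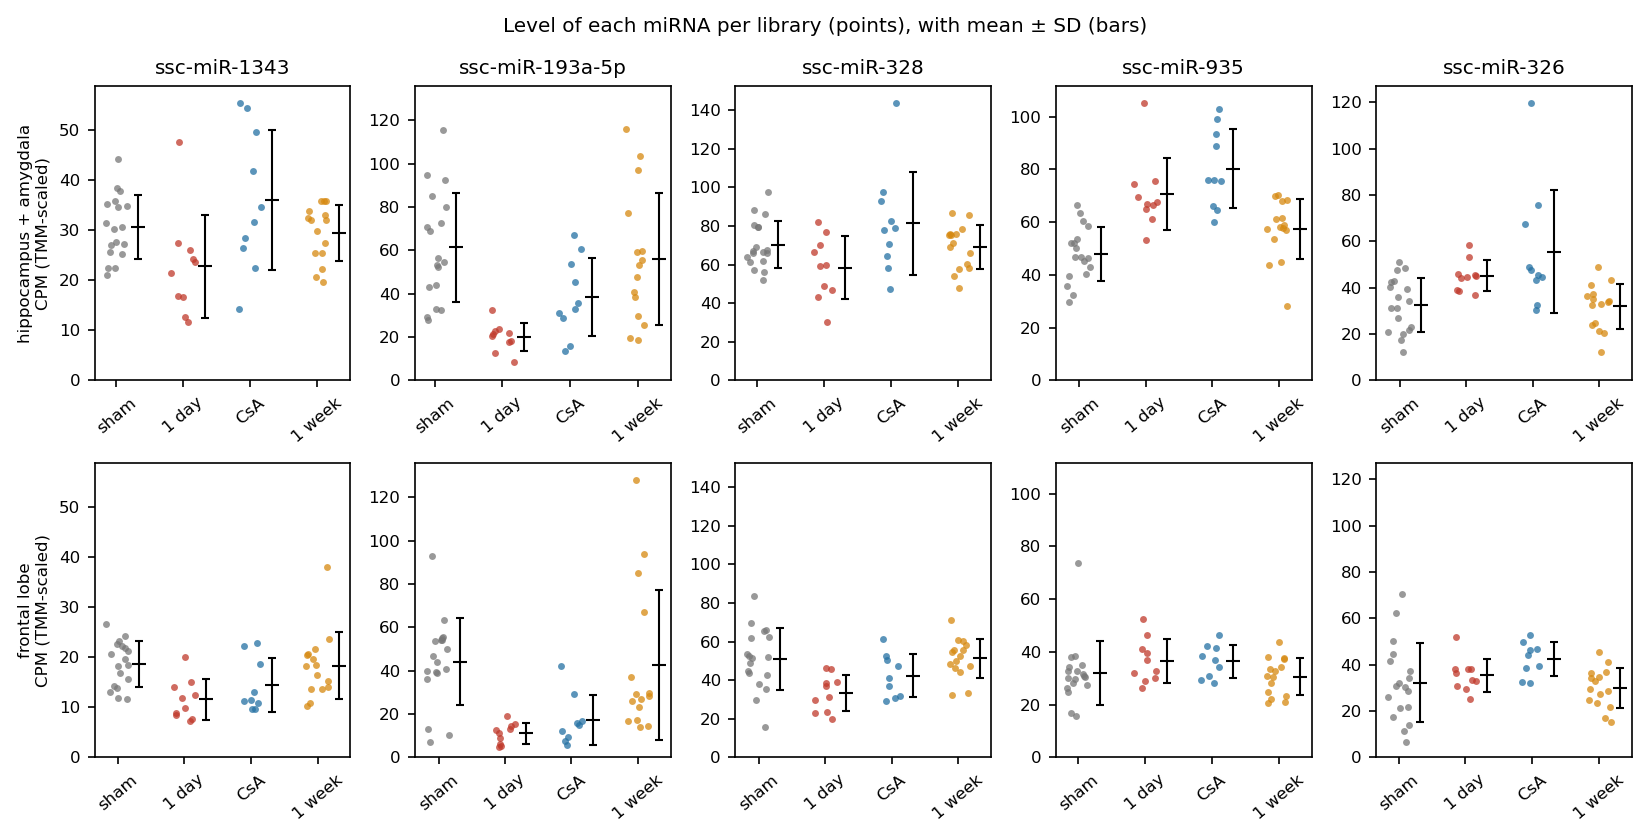
Level of each of the 5 miRNAs in every library, in TMM-scaled CPM (vertical axes from 0, shared within a column), for hippocampus with amygdala (top) and frontal lobe (bottom); points are libraries by group, and the bar beside each group is its mean ± SD. In the hippocampus the 1 day and CsA libraries of ssc-miR-935 all lie above the sham median of 46.7, and 9 of 10 libraries of ssc-miR-193a-5p at 1 day lie below every sham library.

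Set against the sham group of the hippocampus, 2 of 5 were called higher with CsA and none lower, beside 20.3% of the 290 miRNAs called in either direction. At 1 day against sham, 2 were called higher and 2 lower, beside 48.6%. At 1 week against sham 0 of 5 were called, beside 0.345%, and at 1 week against 1 day 2 of 5 were, beside 29.3%. The last count was 1 in 17 of 25 fits that each left out 1 library. Since the 5 were selected on hippocampal levels, these counts are a description. The median log2 difference of the 5 for CsA minus 1 day was 0.48, where that of all 290 was -0.04. The hippocampal 1 week levels stood near sham, with log2 differences from -0.14 (ssc-miR-193a-5p) to 0.25 (ssc-miR-935). The contrasts share libraries: the 1 day group enters both CsA minus 1 day and 1 day minus sham, so that a low 1 day level moves both.

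The frontal lobe of the same animals gave the tested comparison of CsA with untreated injury. None of the 5 passed (0 of 5, beside 0% of 284 miRNAs, of which 12 had an unadjusted p under 0.05, with 0 called by DESeq2). The frontal level of ssc-miR-193a-5p was 11.1 ± 4.79 CPM at 1 day (SD, n = 10) and 17.1 ± 11.6 with CsA (n = 9), a log2 difference of 0.62 (SE 0.40, 95% interval -0.16 to 1.41, edgeR adjusted p = 0.931). Without CsA replicate 9, which at 42.0 CPM was the highest of its group, the difference was 0.33. ssc-miR-328 had 33.4 ± 9.40 CPM at 1 day and 42.4 ± 11.1 with CsA, a difference of 0.34 (interval 0.00 to 0.68, edgeR adjusted p = 0.931). ssc-miR-1343 had 11.6 ± 4.04 and 14.4 ± 5.36 CPM, a difference of 0.31 (interval -0.09 to 0.71, edgeR adjusted p = 0.931).

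The other two showed no larger frontal difference. ssc-miR-326 had 35.5 ± 7.17 CPM at 1 day and 42.5 ± 7.32 with CsA, a log2 difference of 0.26 (interval -0.19 to 0.72, edgeR adjusted p = 0.931). ssc-miR-935 had 36.6 ± 8.25 and 36.5 ± 6.27 CPM, a difference of -0.01 (interval -0.33 to 0.32, edgeR adjusted p = 0.984). The group ranges overlapped for each of the 5, and the intervals for ssc-miR-1343, ssc-miR-193a-5p, ssc-miR-328 and ssc-miR-326 contain the differences of 0.66, 0.95, 0.48 and 0.30 described in the hippocampus, as does that of ssc-miR-935 for its 0.19. Whether the CsA difference is unlike in the 2 regions was not tested, because the hippocampal values chose the miRNAs. The median log2 difference was 0.31 for the 5 and 0.07 for all 284.

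Against frontal sham, 1 of 5 passed with CsA, beside 34.2% of the 284. This was ssc-miR-193a-5p, whose lowest, median and highest frontal levels were 7.20, 45.4 and 93.0 CPM in sham, and 5.63, 15.0 and 42.0 CPM with CsA. All 9 CsA libraries lay below the sham median, though only 1 lay below every sham library. It was 2.57-fold lower with CsA (log2 -1.36, SE 0.38, edgeR adjusted p = 0.00622). The call was lost with the library total as a covariate (-0.92, adjusted p = 0.0779), among animal codes beginning 11 (adjusted p = 0.219) and among those beginning 12 or 13 (-1.34, adjusted p = 0.307).

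The remaining 4 did not pass against frontal sham. The log2 differences of ssc-miR-1343 and ssc-miR-328 were -0.38 (edgeR adjusted p = 0.097) and -0.30 (adjusted p = 0.118). Their hippocampal values, a description, were 0.24 (interval -0.10 to 0.57) and 0.21 (interval -0.05 to 0.46), and both intervals contain 0. Whether the CsA minus sham difference is unlike in the 2 regions was not tested. For ssc-miR-935, whose CsA and sham levels were most distinct in the hippocampus, the frontal difference was 0.16 (interval -0.13 to 0.45, edgeR adjusted p = 0.395). For ssc-miR-326 it was 0.44 (interval 0.03 to 0.85, edgeR adjusted p = 0.0869), and all 9 CsA libraries exceeded the sham median of 30.5 CPM. Leaving out 1 library brought a second call: ssc-miR-326 passed without sham replicate 8 (adjusted p = 0.0303), and ssc-miR-1343 without CsA replicate 7 or CsA replicate 9, with an adjusted p of 0.0387 in the latter case.

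Injury itself, untreated, was tested in the frontal lobe at 1 day. ssc-miR-193a-5p, ssc-miR-328 and ssc-miR-1343 fell, while ssc-miR-935 and ssc-miR-326 did not pass. Thus 3 of 5 were called lower, beside 74 of the 284 called lower and 44.7% called in either direction. ssc-miR-193a-5p had lowest, median and highest levels of 4.61, 12.0 and 19.1 CPM at 1 day against 7.20, 45.4 and 93.0 in sham. It was 3.95-fold lower (log2 -1.98, SE 0.38, edgeR adjusted p = 4.6e-05), with all 10 libraries under the sham median and 3 under every sham library. The fall of ssc-miR-193a-5p was the largest of the 5 in either region.

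ssc-miR-1343 had frontal levels of 11.6, 19.0 and 26.6 CPM in sham and 7.30, 10.8 and 20.1 CPM at 1 day, so that 9 of 10 libraries were under the sham median. It was 1.62-fold lower (log2 -0.69, SE 0.18, edgeR adjusted p = 0.0018). ssc-miR-328 had 15.6, 51.9 and 83.5 CPM in sham and 20.0, 34.1 and 46.3 CPM at 1 day, with all 10 libraries under the sham median and none under the lowest sham library, which was the shallow replicate 15. It was 1.56-fold lower (log2 -0.64, SE 0.15, edgeR adjusted p = 0.000704). The 3 calls held when any 1 of the 28 libraries was left out, replicate 15 included.

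ssc-miR-935 and ssc-miR-326 were not called at 1 day in the frontal lobe. ssc-miR-935 had 32.0 ± 12.1 CPM in sham (n = 18) and 36.6 ± 8.25 at 1 day, a log2 difference of 0.16 (interval -0.12 to 0.45, edgeR adjusted p = 0.369). The hippocampal value, given above as a description, was 0.55. ssc-miR-326 had 32.3 ± 16.9 CPM in sham and 35.5 ± 7.17 at 1 day, a difference of 0.18 (interval -0.22 to 0.58, edgeR adjusted p = 0.485). The sham group of ssc-miR-326 spanned 6.64 to 70.4 CPM, the widest of its frontal groups.

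The sources used here do not explain the animal codes in the library names, which are spread unevenly over the groups. Codes of the 1 day and CsA animals begin 11 (5 and 5 in the hippocampus) or 12 or 13 (5 and 5), whereas 7 of 18 sham and 11 of 15 animals at 1 week carry other codes. For frontal 1 day minus sham, codes beginning 11 gave log2 differences of -1.81 for ssc-miR-193a-5p (edgeR adjusted p = 0.0132), -0.59 for ssc-miR-328 (0.044) and -0.47 for ssc-miR-1343 (0.16). Codes beginning 12 or 13 gave -1.62, -0.62 and -0.81, with adjusted p from 0.152 to 0.171. All 3 were thus lower at 1 day in both sets of codes, which hold 5 or 6 animals a group, and none passed in the second set. For CsA minus 1 day in the hippocampus, codes beginning 11 gave 1.23 for ssc-miR-193a-5p, 0.97 for ssc-miR-1343 and 0.48 for ssc-miR-328, and codes beginning 12 or 13 gave 0.67, 0.39 and 0.49. For hippocampal 1 day minus sham the sets of codes lay further apart. Codes beginning 11 gave -2.03 for ssc-miR-193a-5p, -0.72 for ssc-miR-1343, 0.63 for ssc-miR-935 and 0.69 for ssc-miR-326, whereas codes beginning 12 or 13 gave -0.70, -0.08, 0.30 and 0.02. The CsA minus sham differences of ssc-miR-935 and ssc-miR-326 were 0.74 and 0.75 in the first set and 0.57 and 0.52 in the second.

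At 1 week the frontal levels did not differ from sham by the test. The log2 differences lay between -0.09 (ssc-miR-935) and -0.02 (ssc-miR-328), with an edgeR adjusted p of 0.998 for each (0 of 5, beside 0% of 284, where 19 had an unadjusted p under 0.05 and DESeq2 called 1). The intervals were narrowest for ssc-miR-935, at -0.34 to 0.16, and widest for ssc-miR-193a-5p, at -0.66 to 0.54. Against 1 day, 3 of 5 were higher at 1 week, beside 66 of the 284 called higher and 35.9% called in either direction. They were ssc-miR-193a-5p (log2 1.92, SE 0.38, edgeR adjusted p = 0.000182), ssc-miR-1343 (0.66, SE 0.18, adjusted p = 0.00505) and ssc-miR-328 (0.62, SE 0.16, adjusted p = 0.00214). The same 3 were lower at 1 day than in sham, and both contrasts use the 1 day libraries. Among codes beginning 11, which leaves 4 animals at 1 week, none of the 3 passed: ssc-miR-193a-5p had a log2 difference of 2.10 (adjusted p = 0.0841), ssc-miR-1343 of 0.28 (adjusted p = 0.543) and ssc-miR-328 of 0.21 (adjusted p = 0.598).

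**Figure D2:**
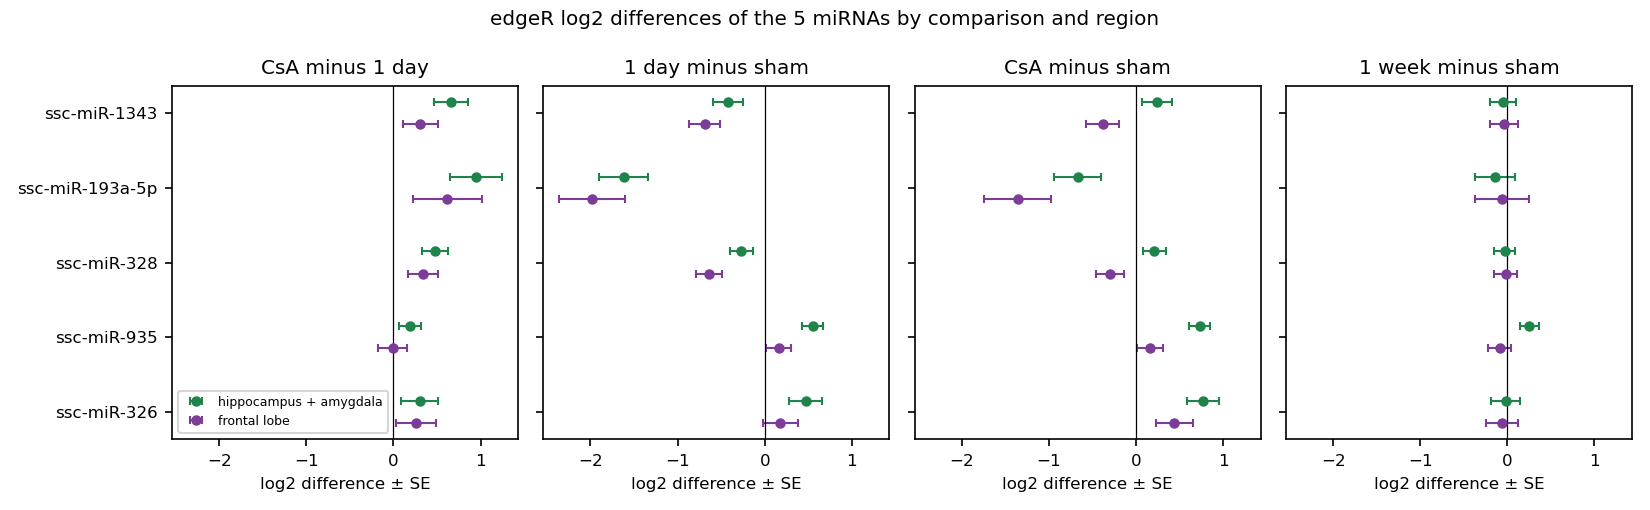
edgeR log2 difference (point) and its SE (bar) of the 5 miRNAs in 4 comparisons, hippocampus with amygdala in green and frontal lobe in purple; the line marks 0. For CsA minus 1 day the hippocampal values run from 0.19 to 0.95 and the frontal ones from -0.01 to 0.62, whereas for 1 week minus sham every value is between -0.14 and 0.25.

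Levels in the 2 regions were compared within the 15 animals studied 1 week after injury, with the animal as a block. Of the 5, 4 were called higher in the hippocampus, beside 63 of 298 miRNAs called higher and 43.0% called in either direction. ssc-miR-935 had frontal levels of 20.7, 30.7 and 43.8 CPM (lowest, median, highest) and hippocampal levels of 28.1, 58.3 and 70.4 CPM, and was higher in the hippocampus in 15 of 15 animals (log2 0.85, SE 0.11, edgeR adjusted p = 1.95e-09). ssc-miR-1343 was higher in 14 of 15 animals (0.67, SE 0.15, adjusted p = 0.000195) and ssc-miR-328 in 15 of 15 (0.38, SE 0.11, adjusted p = 0.0027).

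ssc-miR-193a-5p was higher in the hippocampus in 12 of 15 animals at 1 week (log2 0.50, SE 0.20, edgeR adjusted p = 0.0332). This call was the least firm: without the block for the animal the difference was 0.33 (adjusted p = 0.401), and it was lost on leaving out any 1 of 7 of the 15 animals (frontal replicates 1, 5, 9, 10, 11, 12 and 14). ssc-miR-326 did not pass, with a difference of 0.03 (interval -0.24 to 0.30, edgeR adjusted p = 0.887) and 10 of 15 animals higher in the hippocampus. The other groups, whose hippocampal libraries entered the selection, are given as a description: in the 9 CsA animals with both regions the differences were 1.25 for ssc-miR-1343, 1.21 for ssc-miR-193a-5p, 1.07 for ssc-miR-935, 0.84 for ssc-miR-328 and 0.18 for ssc-miR-326. The first 4 were higher in the hippocampus in 9 of 9 of these animals.

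**Figure D3:**
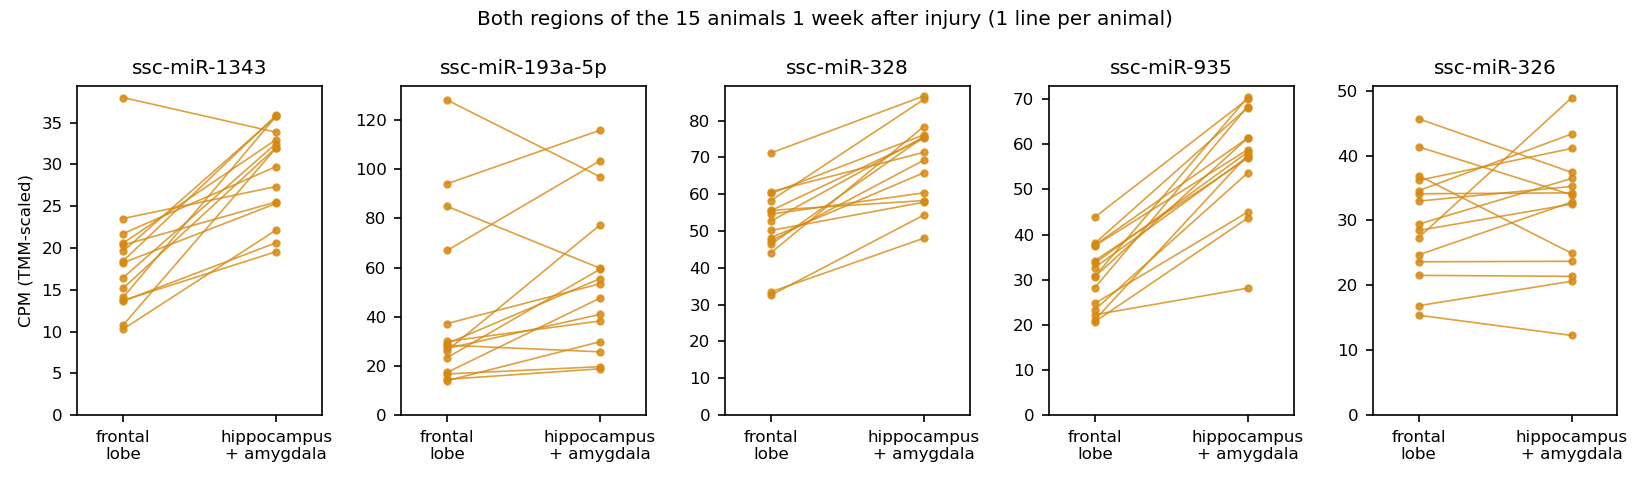
Level of each miRNA in both regions, frontal lobe (left) and hippocampus with amygdala (right), of the 15 animals studied 1 week after injury, in TMM-scaled CPM, with 1 line per animal. Every line rises for ssc-miR-328 and ssc-miR-935, 14 of 15 for ssc-miR-1343 and 12 of 15 for ssc-miR-193a-5p, whereas lines of ssc-miR-326 run both ways (10 of 15 rise).

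Within the same 15 animals, a high frontal level went with a high hippocampal level for some of the miRNAs. Over 5 relations, ssc-miR-193a-5p gave Pearson r = 0.779 (permutation adjusted p = 0.0032) and Spearman rho = 0.725 (adjusted p = 0.016), and r = 0.672 without the 2 animals farthest from the median frontal level. ssc-miR-935 gave r = 0.642 (permutation adjusted p = 0.0064), rho = 0.607 (adjusted p = 0.033) and r = 0.69 without 2. ssc-miR-326 gave r = 0.74 (permutation adjusted p = 0.0032), rho = 0.614 (adjusted p = 0.033) and r = 0.428 without 2. For ssc-miR-328 the relation rested on 2 animals: r was 0.686 (permutation adjusted p = 0.0064), rho 0.511 (adjusted p = 0.069), and r without them 0.321. For ssc-miR-1343 r was 0.369 and rho 0.364 (permutation adjusted p = 0.18 for both), and r without 2 was 0.158. The frontal levels of ssc-miR-193a-5p, ssc-miR-935 and ssc-miR-326 also went with the library total in these animals (r = -0.803, 0.743 and 0.836). Both libraries of an animal share its code and can be alike in depth, and the part of depth or code in the relations between regions was not tested.

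Levels also moved with library depth in one group, where depth was tied to the animal codes. Frontal 1 week libraries with codes beginning 10 or 11 held 2419153 to 7257404 counts, and those with other codes 5942739 to 11305735. Depth and code thus cannot be told apart in these relations. Among the 15 frontal libraries at 1 week, ssc-miR-326 rose with the logarithm of the library total (r = 0.836, permutation adjusted p = 0.0011 over 10 relations; rho = 0.686, adjusted p = 0.037; r = 0.67 without 2). So did ssc-miR-935 (r = 0.743, permutation adjusted p = 0.0059; rho = 0.671, adjusted p = 0.037; r = 0.612 without 2). ssc-miR-193a-5p was lower in deeper libraries (r = -0.803, permutation adjusted p = 0.0023), though rho was -0.6 (adjusted p = 0.069) and r without 2 was -0.676. ssc-miR-1343 and ssc-miR-328 gave r of -0.166 and -0.152, with a permutation adjusted p of 0.72 for each.

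Among the 18 frontal sham libraries none of the 5 relations with depth passed. The one nearest to it was ssc-miR-328, with r = 0.606 (permutation adjusted p = 0.058), rho = -0.106 (adjusted p = 0.75) and r = -0.474 without the 2 libraries farthest from the median total, so that it rested on these. With the total as a covariate the 3 frontal calls at 1 day held, with log2 differences of -1.42 for ssc-miR-193a-5p (edgeR adjusted p = 0.00242), -0.55 for ssc-miR-1343 (0.0285) and -0.65 for ssc-miR-328 (0.00393). That of ssc-miR-193a-5p was -1.98 without the covariate. Frontal totals had a median of 9866050 counts at 1 day and 4679652 in sham. Depth and group are thus partly tied, and the covariate cannot fully separate them.

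**Figure D4:**
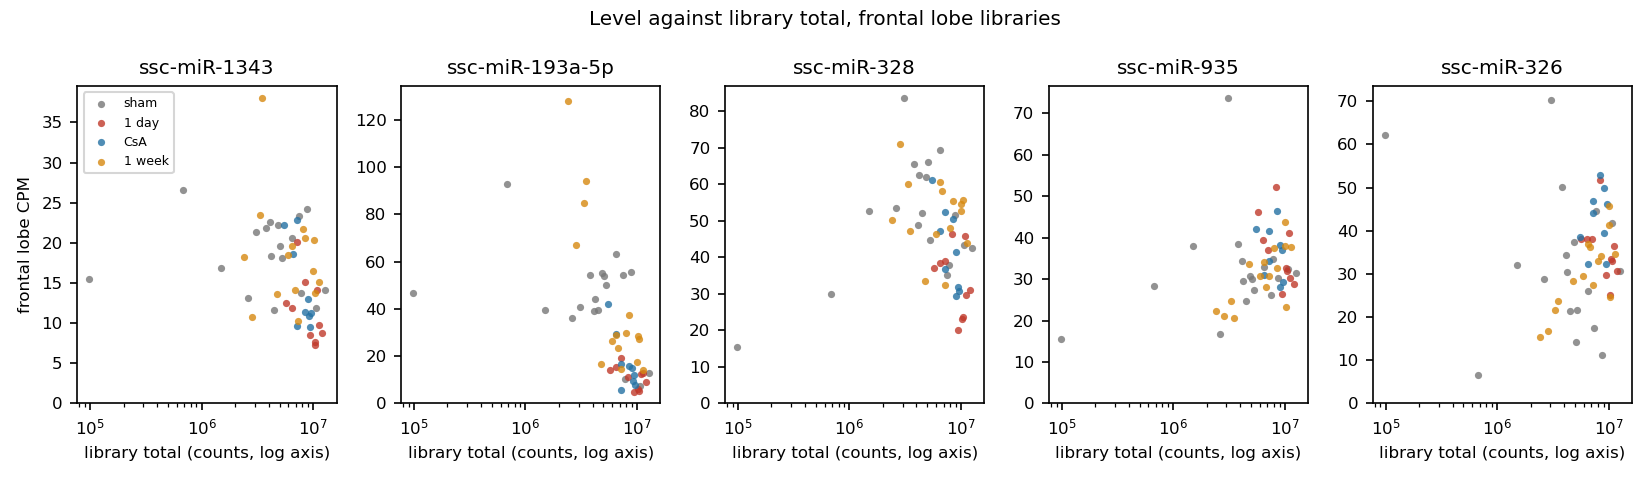
Frontal lobe level of each miRNA (TMM-scaled CPM) against the library total (counts, log axis), with points coloured by group. Among the 1 week libraries ssc-miR-193a-5p is lower and ssc-miR-326 and ssc-miR-935 are higher in deeper libraries (r = -0.803, 0.836 and 0.743), and the 1 day and CsA libraries all hold at least 5531753 counts.

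The 5 did not vary as 1 set among animals. As a description, deviations from the group means correlated at 0.666 between ssc-miR-1343 and ssc-miR-193a-5p over the 52 frontal libraries and at 0.644 over the 53 hippocampal ones. ssc-miR-935 and ssc-miR-326 correlated at 0.411 and 0.719. ssc-miR-193a-5p and ssc-miR-326 ran against each other, at -0.398 and -0.469. Points of these correlations share their library, its depth and its scaling.

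Over the frontal libraries, the miRNAs with the most similar deviations were sought among 207 with a mean of at least 10 CPM. For ssc-miR-193a-5p they were ssc-miR-296-3p (r = 0.952), ssc-miR-885-3p (0.942) and ssc-miR-1307 (0.939). For ssc-miR-1343 they were ssc-miR-486 (0.732), an erythroid and muscle miRNA, ssc-miR-296-3p (0.725) and ssc-miR-744 (0.718). ssc-miR-328 was nearest to ssc-miR-1842 (0.682), ssc-let-7d-3p (0.635) and ssc-miR-1306-5p (0.618). The nearest to ssc-miR-935 were ssc-miR-28-3p (0.632), ssc-miR-150 (0.621) and ssc-miR-299 (0.619), and to ssc-miR-326 ssc-miR-365-3p (0.659), ssc-miR-92a (0.588) and ssc-miR-23b (0.585).

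Of the other arm of miR-193a, ssc-miR-193a-3p, almost nothing was counted: its highest level in any library was 1.01 CPM, so the locus was read almost wholly from its 5p arm. In the list of partner arms and relatives, 4 of 7 names were in the table and 2 could be tested. Neither passed in the frontal lobe for CsA minus 1 day, where ssc-miR-365-3p had a log2 difference of -0.31 and ssc-miR-330 of 0.06 (edgeR adjusted p = 0.931 and 0.978). At 1 day against sham ssc-miR-330 was lower (-0.23, SE 0.08, adjusted p = 0.0157).

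As CsA acts on T cells and on calcineurin, lists of immune and of activity-regulated neuronal miRNAs were set beside the 5 in the frontal lobe. For CsA minus 1 day 0 of 10 immune and T cell miRNAs passed, with a median log2 difference of -0.00 where that of all 284 was 0.07. The ones with the smallest p were ssc-miR-142-5p (0.49), ssc-miR-142-3p (0.43) and ssc-miR-223 (0.32), each with an edgeR adjusted p of 0.931. All of these are also among the leukocyte markers used below, though bulk tissue does not show which cells held them. Against sham 1 of the 10 was higher with CsA, ssc-miR-142-5p (0.66, SE 0.22, edgeR adjusted p = 0.0169), beside 34.2% of all 284 called in either direction.

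Of the activity-regulated neuronal miRNAs 0 of 5 passed for CsA minus 1 day, with a median of -0.01. ssc-miR-129a-5p had a log2 difference of 0.23, ssc-miR-138, a miRNA of dendrites, of -0.15, and ssc-miR-212, which is induced through CREB, of -0.31 (edgeR adjusted p = 0.931 for each). Against sham 1 was higher and 1 lower with CsA, again beside 34.2% of all 284. The higher one was ssc-miR-212 (0.65, SE 0.24, adjusted p = 0.0343) and the lower one ssc-miR-124a (-0.42, SE 0.11, adjusted p = 0.0038).

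Summed levels of markers of other cell types also differed in median between the hippocampal groups, with overlapping ranges. The neuronal miRNAs ssc-miR-124a and ssc-miR-9 summed to at least 14147 CPM in every hippocampal library, as brain tissue would give. Their sum was at least 14936 CPM in every frontal library, so it does not tell the 2 regions apart. The 3 erythrocyte markers, all in the table, summed to a median of 163 CPM at 1 day (range 69.4 to 241), 223 with CsA (113 to 399) and 220 in sham (103 to 294), an order like that of ssc-miR-1343. Nearly all of this was ssc-miR-486, while the more specific ssc-miR-451 had means of 5.16, 4.46 and 1.40 CPM in the same order of groups. The choroid plexus markers ssc-miR-204 and ssc-miR-34c summed to medians of 1034.5 CPM at 1 day (232 to 2582), 634 with CsA (276 to 1444) and 500.5 in sham (111 to 1735), and the 2 oligodendrocyte markers to 653, 556 and 832 CPM (513 to 875, 348 to 764 and 478 to 994). The 4 leukocyte markers differed little in sum, with medians of 162, 164 and 147 CPM (122 to 196, 125 to 205 and 119 to 213). Taken singly, 2 of the 4 were called higher at 1 day than in sham, beside 48.6% of the 290 miRNAs called in either direction. ssc-miR-142-3p went the other way on average (27.6 CPM at 1 day, 38.1 in sham), and none was called for CsA minus sham. Neither choroid plexus marker was called for CsA minus 1 day, CsA minus sham or 1 day minus sham. The 4 skeletal muscle markers summed to medians of 88.6, 88.0 and 119 CPM (71.4 to 207, 69.0 to 141 and 58.3 to 216).

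Beside the frontal fall of ssc-miR-193a-5p, ssc-miR-1343 and ssc-miR-328 at 1 day, some of these markers were called and others were not. By list, 1 of 2 erythrocyte, 1 of 2 oligodendrocyte, 1 of 3 skeletal muscle, 1 of 2 choroid plexus and 0 of 4 leukocyte markers tested were called. For neurons 1 of 2 was called higher and 1 lower. Over all 284 miRNAs 44.7% were called in either direction, and no excess over that share is read from the markers. The erythrocyte markers summed to a median of 107 CPM at 1 day (41.8 to 149) and 155 in sham (49.7 to 312). In that sum ssc-miR-486 fell (log2 -0.85, SE 0.21, edgeR adjusted p = 0.00115), while ssc-miR-451 had a difference of 1.22 (adjusted p = 0.0546). Of the 2 neuronal markers ssc-miR-124a fell (-0.47, adjusted p = 0.000356) and ssc-miR-9 rose (0.60, adjusted p = 0.00322), with sums of 18230 to 25016 CPM at 1 day and 14936 to 27891 in sham. The oligodendrocyte marker ssc-miR-338 fell (-0.30, adjusted p = 0.0373), as did ssc-miR-206 of skeletal muscle (-0.98, adjusted p = 0.000104), and the choroid plexus marker ssc-miR-204 rose (0.53, adjusted p = 0.00983). The rest of these lists did not pass or was not tested. Mean levels in sham and at 1 day were 1.82 and 2.11 CPM for the oligodendrocyte marker ssc-miR-219a, and 89.8 and 93.7 for ssc-miR-34c of choroid plexus. For skeletal muscle they were 113.8 and 105.3 CPM (ssc-miR-1), 3.25 and 4.8 (ssc-miR-133a-3p), and 0.343 and 0.438 (ssc-miR-133b). Sums of the oligodendrocyte, skeletal muscle and choroid plexus lists had medians of 996, 136 and 239 CPM at 1 day (811 to 1476, 106 to 159 and 171 to 304) and 1234, 159 and 202 CPM in sham (777 to 2037, 77.7 to 279 and 46.7 to 324). None of the 4 leukocyte markers passed, and their sums had medians of 154 and 164 CPM (130 to 181 and 109 to 224). The part of these cell types in the levels of the 5 miRNAs was not tested in either region.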

How the data were processed

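The authors deposited 1 table of raw counts, whole numbers for each mature pig miRNA in each library, with no scaling. Per the labels' protocols, RNA was isolated with a Mag-Bind FFPE kit and libraries were made with a QIAseq miRNA kit. Per the submitters' processing notes, the tools included cutadapt 1.9.1 and Trimmomatic 0.39. The sources used here name no aligner, counter, annotation, build or handling of molecular identifiers. Counts are therefore taken as reads, which may repeat a molecule, and a read shared between similar miRNAs could have been assigned to either.

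Of 542 entries (89 at 0 throughout, 457 names), repeats of a name and 6 sets of names with the same counts (totals of at least 100 that differed by less than 0.01 of the larger) were each reduced to 1 entry, that of the highest total, which left 448. None of these merges touched the 5 miRNAs. All 105 columns were mapped by library name to 53 animal codes, 52 of them with both regions. Per the series' design text another number of subjects is given, so replicates are assumed to be animals, and p-values measure the spread between these libraries. Even the 2 most similar libraries differed by more than counting error (chi-square 4484, 218 degrees of freedom).

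edgeR 4.0.16 (R 4.3.3) quasi-likelihood tests used TMM scaling and filterByExpr (minimum count 10, total 15), with the 4 groups of a region in 1 fit and Benjamini-Hochberg adjustment over all miRNAs tested, at 0.05. All 5 miRNAs passed the filter in both regions. SE is the log2 difference divided by the root of F, and 95% intervals are 1.96 SE either side. Regions were compared with the animal as a block, since the code pairs libraries: deviations from group means correlated at a median of 0.253 within animals (above 0.1 in 39 of 52) and -0.00302 between animals. DESeq2 1.42.0 was an alternative. The code was tested on simulated data. Permutation tests were 2-sided, with 100000 resamples where not exact. The 5 miRNAs, the lists and the naming rule were chosen with earlier results of these data known. The rule names the 5, measured partner arms, up to 3 list members by smallest p in frontal CsA minus 1 day, and the 3 most similar miRNAs. No sequences were used here, and RefSeq positions served only to place the 5 miRNA genes among their neighbours.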

Additional observations from a re-analysis of the deposited data

Results flagged for a closer look

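Each of the 20 groups of at most 10 libraries (5 miRNAs, 1 day and CsA, both regions) was searched for a library far from the rest, and 5 were found. Chance would give about 1 in 20 if the groups were independent. They share libraries and animals, so no excess over chance is read from this number. The hippocampal CsA replicate 3 stood high for ssc-miR-328 at 143.9 CPM and for ssc-miR-326 at 119.8 CPM. In the frontal lobe of that animal (frontal CsA replicate 1) the same miRNAs were at 30.8 and 46.3 CPM, inside the range of the other CsA libraries. The hippocampal 1 day replicate 6 stood high for ssc-miR-1343 at 47.68 CPM and for ssc-miR-935 at 105.3 CPM. Frontal 1 day replicate 3, which carries the same animal code, stood high for ssc-miR-326 at 51.76 CPM. This animal was also the highest of its group for ssc-miR-935 in the frontal lobe (52.3 CPM), for ssc-miR-328 there (46.3 CPM), and for ssc-miR-193a-5p in the hippocampus (32.4 CPM).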

How the results depend on the processing

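Counts of the 5 miRNAs called were recomputed under alternatives chosen with the design, and the cause of each change was not tested. These counts, and those with 1 library left out, are given without the share over all miRNAs in the same fit. They show only how the calls of the 5 moved, and nothing is read from the hippocampal ones. With log10 of the library total as a covariate, frontal CsA minus sham had 0 calls in place of 1, hippocampal CsA minus sham 1 in place of 2, 1 day minus sham 2 in place of 4, and 1 week minus 1 day 1 in place of 2. Among codes beginning 11, with fewer animals, frontal CsA minus sham and 1 week minus 1 day had 0 calls, hippocampal CsA minus sham 1 and 1 week minus 1 day 0. Among codes beginning 12 or 13, frontal and hippocampal 1 day minus sham and CsA minus sham all had 0 calls, and no 1 week animals remained. DESeq2 gave 3 calls in place of 0 for hippocampal CsA minus 1 day. As this contrast chose the 5, that count does not bear on them, and the DESeq2 count over all miRNAs is given with the hippocampal levels above. For hippocampal 1 week minus 1 day, RLE scaling, DESeq2, no filter on low counts and leaving out let-7 each gave 1.

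Values near 0 changed sign: for frontal CsA minus 1 day ssc-miR-935 was 0.00 with the total as covariate and 0.02 among codes beginning 12 or 13. For frontal CsA minus sham it was -0.03 among codes beginning 11. For frontal 1 week minus sham, ssc-miR-1343 was 0.03 and ssc-miR-193a-5p 0.08 with the total as covariate, and ssc-miR-193a-5p 0.30 among codes beginning 11. Without the block for the animal, 3 of 5 in place of 4 differed between regions.

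Leaving out 1 library gave 1 to 2 calls for frontal CsA minus sham, 0 to 3 for hippocampal CsA minus 1 day, 2 to 5 for 1 day minus sham, and 1 to 3 for 1 week minus 1 day. In hippocampal CsA minus 1 day the count rose without 1 day replicate 6, CsA replicate 1 or CsA replicate 2, and in 1 day minus sham it was 2 without sham replicate 12, 1 day replicate 1 or 1 day replicate 2, and 5 without 1 day replicate 5. In 1 week minus 1 day it was 1 in 17 of 25 such fits. In the frontal lobe it gave ssc-miR-935 differences of -0.09 to 0.06 for CsA minus 1 day, and for 1 week minus sham values of -0.15 to 0.01 for ssc-miR-1343, -0.27 to 0.03 for ssc-miR-193a-5p, -0.06 to 0.02 for ssc-miR-328, -0.13 to 0.02 for ssc-miR-935 and -0.11 to 0.05 for ssc-miR-326. The region difference of ssc-miR-326 ran from -0.04 to 0.08, with -0.02 and -0.01 among the values below 0. No scaling moved the median of all miRNAs by more than 0.1. Depth limits the shallow sham libraries most: in each of the 5 miRNAs at least 1 library held fewer than 10 counts.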
